A study of Arabidopsis thaliana with 6 samples.

Results

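Photosynthetic carbon metabolism, light harvesting, chlorophyll synthesis and starch breakdown were followed in rosette leaves of Arabidopsis thaliana through 6 gene names, SBPASE, LHCB4.2, CHLI2, HEMB1, PWD and DPE1. The members are the probe sets (sets of short oligonucleotides summarised to 1 value) that the platform annotation pairs with exactly 1 of these genes. They came to 7 of the 22746 probe sets other than controls, because the annotation gives the symbol PWD to 2 loci, AT5G26570 and AT4G24450. Total RNA was the starting material and biotin the label, and each sample was hybridised to an ATH1 array of its own. The wild-type group was Col-2 (3 arrays), and the pho1 group was an EMS (chemically induced) mutant in the Col-2 background (3 arrays). All plants were at growth stage 3.90 and grew in a growth room at 24 °C and 80% humidity with a 16 h photoperiod, on 0.8% agar made up with MS salts and 1% sucrose. The sugar was thus present for both groups. The labels name 1 stock per genotype and do not say how many plants or trays made up a sample, so the spread behind the p-values may be technical. The annotation pairs no probe set with PHO1 itself, and the label pho1 was not checked by that transcript.

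The Calvin cycle fixes carbon dioxide in the chloroplast and works through phosphorylated sugars, so that its products leave the chloroplast in exchange for phosphate or are stored as starch. Chlorophyll is made in the chloroplast from aminolevulinate through porphyrins, and chlorophyll-binding antenna proteins pass light energy to the photosystems. Starch made by day is broken down at night after dikinases have phosphorylated its surface. PHO1 is known for loading phosphate into the xylem in roots, and pho1 leaves are known to be short of phosphate.

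All 7 probe sets were bright enough to be tested. Only the probe set of AT4G24450 passed the test over all arrays, and it was higher in pho1. The annotation gives this locus the symbol PWD, but a synonym of it is ATGWD2. The locus named phosphoglucan water dikinase is AT5G26570, which did not pass. The other 6 probe sets did not pass: 5 had log2 differences from -0.61 to -0.40 and LHCB4.2 had 0.28. Over all 15922 probe sets tested, 2.62% passed as higher and 0.345% as lower (limma, adjusted p under 0.05), and the median log2 difference was -0.021. The pho1 signals lay wholly below the wild-type signals for HEMB1, PWD (AT5G26570) and DPE1, 3 of 7 members against a background of 9.03%, and wholly above them for PWD (AT4G24450), against a background of 10.8%. In every same-numbered pair pho1 was the lower for 5 of the 7 members, where 22.2% of all probe sets tested were. The members were chosen with earlier results of these data known, so these shares cannot test whether such genes fall. Of the 22 tested list probe sets outside the members, 1 lay wholly below wild type and 0 wholly above, and 6 were lower in every pair. In bulk leaf RNA, fewer cells of a type and less RNA per cell cannot be told apart.

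**Figure D1:**
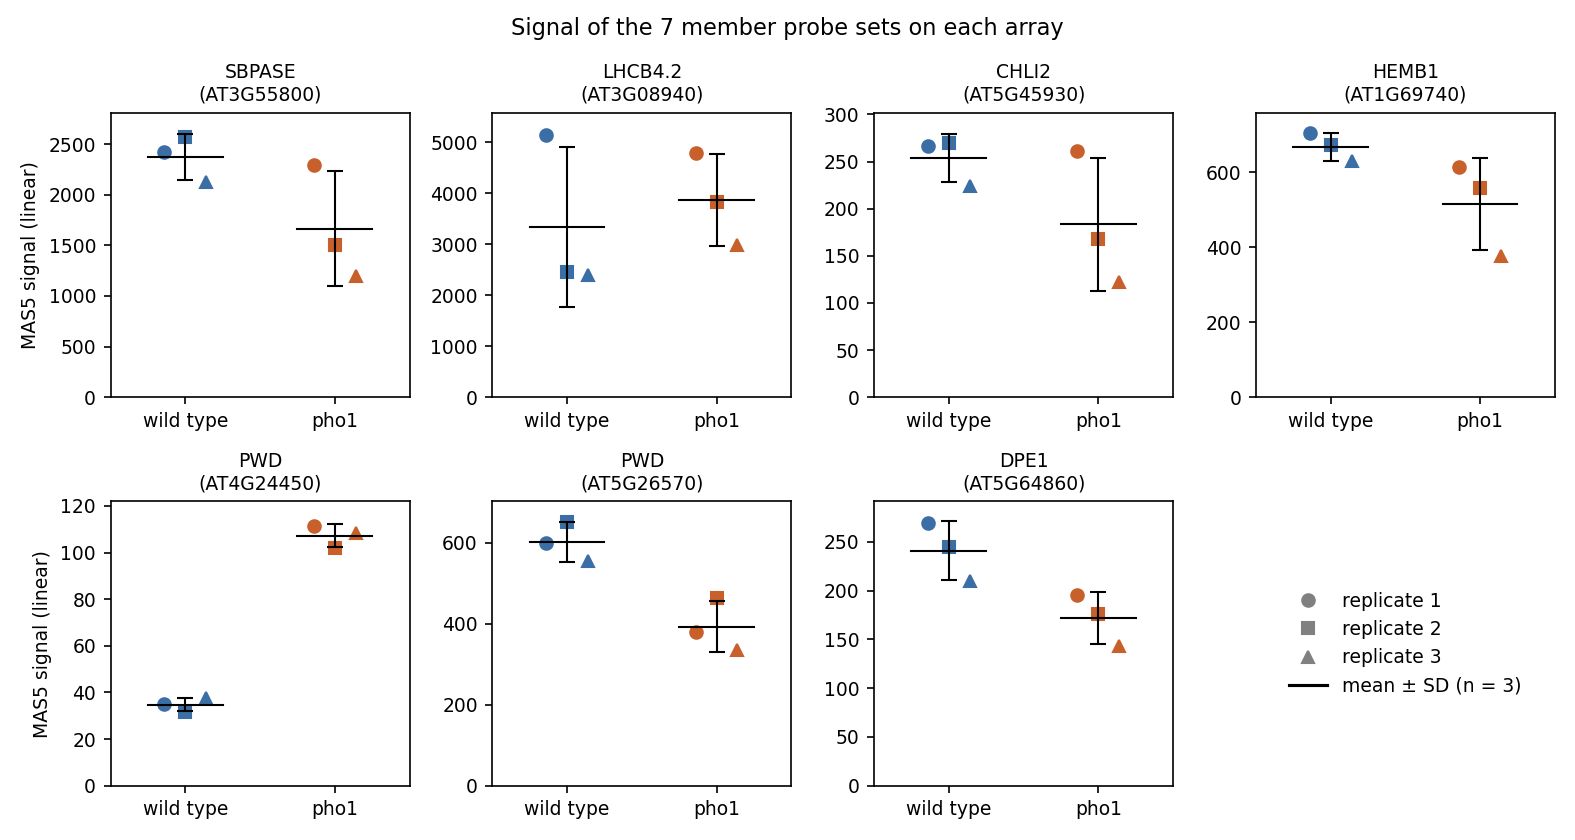
MAS5 signal (linear axis from 0) of the 7 member probe sets in wild type and pho1, with 1 point per array, the shape giving the replicate number, a line at the mean and bars of 1 SD (n = 3). The pho1 points of PWD (AT4G24450) lie at 102 to 111, all above the wild-type points at 31.8 to 37.4, while pho1 replicate 1 lies near the wild-type points of SBPASE and CHLI2.

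Both replicate 1 arrays stood apart from the other 4. The median over 12 bacterial spike-in control probe sets (dap, lys, phe, thr) was 2.15 and 4.00 there and 52.4 to 92.8 elsewhere, and the actin 3′ to 5′ signal ratio was 2.19 and 3.01 there and 1.51 to 1.89 elsewhere. The GAPDH 3′ to 5′ ratio did not set both apart. It was 1.03 in wild type replicate 1, 1.167 in pho1 replicate 1 and 0.93 to 1.093 elsewhere. The labels name no batch, and replicate 1 holds 1 array of each group. Median signals were 41.2 to 46.5 on all arrays. Of the markers fixed for leaf mesophyll, root, guard cell, trichome, vascular tissue and senescence, 1 per list had a named probe set. RCA, Rubisco activase of the leaf mesophyll, had signals of 3025 to 5097 over both groups. The root gene PYK10 had 173 to 398 in wild type and 278 to 571 in pho1 (log2 difference 0.795, limma adjusted p = 0.354). The trichome gene TRY had 26.5 to 38.4 in wild type and 12.0 to 25.7 in pho1 (-0.54, limma adjusted p = 0.348). The guard cell gene FMA was at 0.28 (limma adjusted p = 0.527). None of the 5 markers tested passed. Results for each member are given over all arrays and also for replicates 2 and 3 on their own, which leaves 2 arrays per group. In that fit 19.0% of all probe sets passed (9.72% higher, 9.26% lower).

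SBPASE encodes sedoheptulose bisphosphatase, an enzyme of the Calvin cycle that regenerates the acceptor of carbon dioxide. Its signals were 2421, 2573 and 2131 in wild type replicates 1, 2 and 3 and 2299, 1503 and 1195 in the pho1 replicates. The pho1 value of replicate 1 lay among the wild-type values, and those of replicates 2 and 3 lay below all of them, so the groups overlapped. The means were 2375 ± 225 and 1666 ± 570.1 (SD, n = 3 each), and the log2 difference was -0.56 ± 0.27 (SE; 95% interval -1.18 to 0.07; limma adjusted p = 0.392), so the difference did not pass the test. Intervals are not adjusted for the number of probe sets. By pair, the pho1 signal was 94.97%, 58.4% and 56.1% of the wild-type signal. In replicates 2 and 3 on their own SBPASE fell by 0.80 ± 0.17 on the log2 scale (limma adjusted p = 0.0195). The difference between replicate 1 and the other pairs was 0.73 on the log2 scale, and a test of it did not pass (limma adjusted p = 0.276), where 0.383% of all probe sets did. Leaving out 1 array gave log2 differences from -0.82 without pho1 replicate 1 (limma adjusted p = 0.0591) to -0.35 without pho1 replicate 3 (0.802).

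The Calvin cycle list of 26 entries had 3 tested members, none of which passed over all arrays. Its median was -0.22, and 2 of the 3 lay below 0. The median rested on single arrays: with wild type replicate 1 left out it was 0.010, with pho1 replicate 3 left out 0.024, and with pho1 replicate 1 left out -0.518. The other members were PRK, phosphoribulokinase, at -0.22 (limma adjusted p = 0.843), and RCA at 0.03 (0.979). Signals of PRK were 4472, 3057 and 2550.01 in the wild-type replicates and 4277, 2581 and 2010.4 in the pho1 replicates. Replicate 1 was the highest of both groups for PRK, and pho1 was the lower array in each pair. SBPASE was also lower in pho1 in each pair, but its wild-type signal in replicate 1 lay between those of replicates 2 and 3.

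LHCB4.2 encodes a minor antenna protein of photosystem II, and LHCB4.1 and LHCB4.3 are its close relatives. Its signals were 5144, 2460.1 and 2398 in the wild-type replicates and 4789, 3833 and 2982 in the pho1 replicates. Both replicate 1 arrays lay above the other 4, and within replicates 2 and 3 the pho1 arrays lay above the wild-type arrays. The means of 3334 ± 1568 and 3868 ± 904 (SD, n = 3 each) gave a log2 difference of 0.28 ± 0.35 (SE; 95% interval -0.52 to 1.09; limma adjusted p = 0.79). Leaving out 1 array moved it from 0.09 (without wild type replicate 3) to 0.64 (without wild type replicate 1), with no call. The interval is wide enough to hold a fall or a doubling (log2 of 1) of the signal. In replicates 2 and 3 on their own the log2 difference was 0.48 ± 0.17 and did not pass either (limma adjusted p = 0.0908).

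The related genes gave different values. LHCB4.1 had signals of 6377, 3583 and 3469 in the wild-type replicates and 5922, 4352 and 3319 in the pho1 replicates, a log2 difference of 0.04 ± 0.33 (limma adjusted p = 0.978). LHCB4.3 had 127, 447 and 388 in the wild-type replicates and 153, 159.7 and 192 in the pho1 replicates. Here both replicate 1 arrays were the lowest of all, the reverse of LHCB4.2 and LHCB4.1 and an order seen in 16.7% of all probe sets tested. LHCB4.3 had a log2 difference of -0.72 ± 0.41 over all arrays (limma adjusted p = 0.485), and in replicates 2 and 3 it fell by 1.204 (limma adjusted p = 0.00288). The pair of replicate 1 differed from the others by 1.45 on the log2 scale, which did not pass (limma adjusted p = 0.0797). These 3 genes were all that the light harvesting list of 27 entries had tested, with a median of 0.04, which ran from -0.18 without pho1 replicate 1 to 0.32 without wild type replicate 1. Whether probes of LHCB4.1 and LHCB4.2 read each other's transcripts was not tested.

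The tested nuclear genes of the photosystems, electron transport and ATP synthase had small mean log2 differences. All 7 tested members of that list of 47 entries lay between -0.08 and 0.17 with a median of 0.04, and none passed over all arrays or in replicates 2 and 3. PSBY and PSBW, small subunits of photosystem II, were at 0.17 (limma adjusted p = 0.878) and 0.12 (0.92). Both replicate 1 arrays lay above the other 4 for 7 of these 7 genes, as they did for LHCB4.2, where 16.4% of all probe sets tested had that order. None of the other 6 members had it.

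HEMB1 encodes aminolevulinate dehydratase, which joins aminolevulinate into the first ring of the path to chlorophyll and heme. Its signals were 704, 672 and 629.7 in the wild-type replicates and 613, 557 and 377 in the pho1 replicates. All pho1 values lay below all wild-type values, by a gap of 0.04 on the log2 scale between the nearest. The means were 669 ± 37.5 and 516 ± 124 (SD, n = 3 each), and the log2 difference was -0.40 ± 0.22 (SE; 95% interval -0.90 to 0.10; limma adjusted p = 0.458). The pho1 signal was 87.1%, 82.9% and 59.9% of wild type by pair, so replicate 3 had the lowest share. Without pho1 replicate 3 the log2 difference was -0.19 (limma adjusted p = 0.867). HEMB1 did not pass in replicates 2 and 3 alone (-0.50, limma adjusted p = 0.12).

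CHLI2 encodes an I subunit of magnesium chelatase, the enzyme that puts magnesium into the porphyrin ring. It is the minor isoform beside CHLI1, which had no named probe set. The CHLI2 signals were 267, 269 and 224 in the wild-type replicates and 261, 168 and 123 in the pho1 replicates. As for SBPASE, pho1 replicate 1 lay within the wild-type range and pho1 replicates 2 and 3 lay below it. The means were 254 ± 25.3 and 184 ± 70.5 (SD, n = 3 each), and the log2 difference was -0.50 ± 0.26 (SE; 95% interval -1.10 to 0.09; limma adjusted p = 0.423). It was -0.78 without pho1 replicate 1 (limma adjusted p = 0.0639) and -0.26 without pho1 replicate 3 (0.843). CHLI2 fell by 0.74 ± 0.18 on the log2 scale in replicates 2 and 3 alone (limma adjusted p = 0.0304). By pair its pho1 signal was 97.7%, 62.2% and 54.6% of wild type, and the test between replicate 1 and the other pairs gave a difference of 0.71 (limma adjusted p = 0.304).

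**Figure D2:**
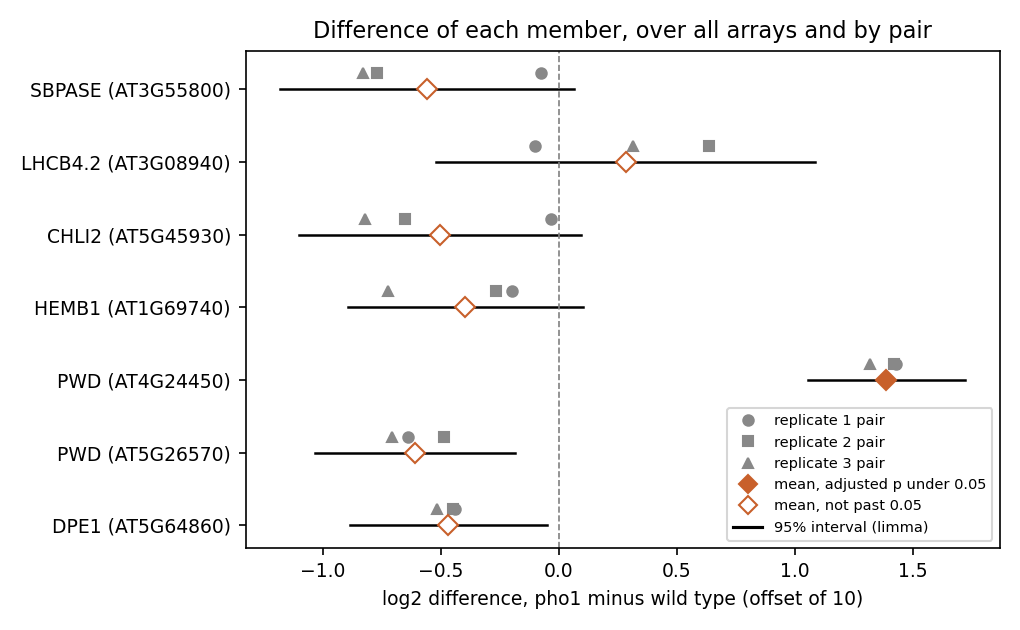
Log2 difference, pho1 minus wild type, of each member over all arrays (diamond, filled where the limma adjusted p was under 0.05, with its 95% interval as a line) and for each same-numbered pair of arrays (grey points). PWD (AT4G24450) lies at 1.39 with all pairs between 1.32 and 1.43, and the replicate 1 pairs of SBPASE and CHLI2 lie at -0.07 and -0.03.

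Of 8 tested genes of chlorophyll synthesis, 7 lay below 0 and none passed over all arrays. The median of the list of 44 entries was -0.27, against -0.021 over all probe sets, and 5 of the 8 were lower in pho1 in every pair. The list medians by pair were -0.07, -0.30 and -0.41. GSA1 encodes the aminotransferase that makes aminolevulinate, the substrate of HEMB1. It was at -0.27 over all arrays (limma adjusted p = 0.62) and fell by 0.50 in replicates 2 and 3 (limma adjusted p = 0.0463). Its signals in replicate 1 ran the other way, with 364 in wild type and 422 in pho1. HEME1, a uroporphyrinogen decarboxylase further down the path, was at -0.28 (limma adjusted p = 0.624) and had pairs of -0.35, -0.22 and -0.26. PORB, a protochlorophyllide reductase, was the exception at 0.23 (limma adjusted p = 0.812). CHLI2 and GSA1 were the list members that passed in replicates 2 and 3, where 9.26% of all probe sets were called lower. For chlorophyll breakdown 1 of 17 entries was tested, NOL, a chlorophyll b reductase. NOL was at -0.41 with pho1 wholly below wild type and did not pass (limma adjusted p = 0.266).

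The symbol PWD covered loci with differences of opposite sign. AT5G26570, for which the gene table also gives the name phosphoglucan water dikinase, encodes the chloroplast enzyme that adds phosphate to starch after the glucan water dikinase has acted. AT4G24450 has the synonym ATGWD2 in that table, which also lists GWD3 for it, although ATGWD3 stands at AT5G26570. The enzyme of AT4G24450 is known from Arabidopsis as a glucan water dikinase found outside the chloroplast.

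The PWD probe set of AT4G24450 was higher on every pho1 array. Its signals were 35.1, 31.8 and 37.4 in the wild-type replicates and 111, 102 and 108 in the pho1 replicates. The groups did not overlap, and the lowest pho1 value exceeded the highest wild-type value by 1.24 on the log2 scale. The means of 34.8 ± 2.81 and 107 ± 4.90 (SD, n = 3 each) gave a ratio of mean signals of 3.08. On the log2 scale with the offset of 10, which understates the change of dim probe sets, AT4G24450 rose by 1.39 ± 0.15 (SE; 95% interval 1.06 to 1.72; limma adjusted p = 0.00217). It also passed with the replicate block (limma adjusted p = 0.0024), where 4.95% of all probe sets were called higher. It ranked at 76 by p among the 15922 probe sets tested. The rise was alike in the pairs, at 1.43, 1.42 and 1.32, and AT4G24450 passed in replicates 2 and 3 on their own at 1.37 (limma adjusted p = 0.00198). It passed in each of the 18 alternatives, with adjusted p from 6.8e-05 to 0.018.

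The PWD probe set of AT5G26570 was lower on every pho1 array but did not pass. Its signals were 599, 653 and 555 in the wild-type replicates and 381, 463 and 336 in the pho1 replicates, with no overlap and a gap of 0.26 on the log2 scale between the nearest values. The means were 602 ± 49.0 and 393 ± 64.1 (SD, n = 3 each), and the log2 difference was -0.61 ± 0.19 (SE; 95% interval -1.04 to -0.19; limma adjusted p = 0.151). With the replicate number as a block the call changed (limma adjusted p = 0.0494), a fit in which 1.69% of all probe sets were called lower. In replicates 2 and 3 the log2 difference was -0.60 (limma adjusted p = 0.0598). The pho1 signal was 63.6%, 70.9% and 60.6% of wild type by pair, with replicate 1 between the others. Within each array, the log2 ratio of AT4G24450 to AT5G26570 moved by 2.07, 1.91 and 2.03 from wild type to pho1 in the pairs, with a mean change of 2.00.

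SWEET11, a sucrose exporter of the phloem parenchyma and the named marker of the 4 fixed for vascular tissue, was also higher on every pho1 array. Its signals were 518, 571 and 601 in wild type and 1016, 853 and 984 in pho1, which did not overlap. The log2 difference of SWEET11 was 0.74 ± 0.18 (limma adjusted p = 0.0697; with pairs as a replicate block, 0.0307). In replicates 2 and 3 SWEET11 was at 0.64 and passed (limma adjusted p = 0.0192). The part of vascular tissue in the AT4G24450 result was not tested.

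DPE1 encodes the chloroplast disproportionating enzyme, which recycles short glucans left by starch breakdown. Its signals were 269.5, 244.5 and 209.6 in the wild-type replicates and 196, 176 and 144 in the pho1 replicates. All pho1 values lay below all wild-type values, with a gap of 0.09 on the log2 scale between the nearest, and replicate 3 was the lowest in both groups. The means were 241 ± 30.1 and 172 ± 26.4 (SD, n = 3 each), and the log2 difference was -0.47 ± 0.18 (SE; 95% interval -0.89 to -0.05; limma adjusted p = 0.267). The pho1 signal was 72.7%, 72.2% and 68.6% of wild type by pair, the narrowest spread of any member with a lower pho1 mean. DPE1 did not pass with the replicate block (limma adjusted p = 0.0996) or in replicates 2 and 3 (-0.48, limma adjusted p = 0.0728).

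The starch breakdown list of 34 entries had 4 tested probe sets. They were both loci with the symbol PWD, DPE1 and AMY1, an alpha-amylase at 0.15 (limma adjusted p = 0.901). AT4G24450 rose, and the other 3 did not pass over all arrays. Starch synthesis had 3 tested members of 24 entries, with a median of -0.05, and none passed over all arrays. SBE2.2, a starch branching enzyme, was at -0.55 (limma adjusted p = 0.452), with pairs of -0.66, -0.36 and -0.62. With the spike-in sets as a block SBE2.2 passed at the margin (limma adjusted p = 0.0499), where 2.63% of all probe sets were called lower. APL3, a large subunit of ADP-glucose pyrophosphorylase, was at 0.46 (limma adjusted p = 0.446), with pairs of 0.12, 0.55 and 0.70. The list of triose phosphate export and sucrose synthesis, of 26 entries, had no named probe set.

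**Figure D3:**
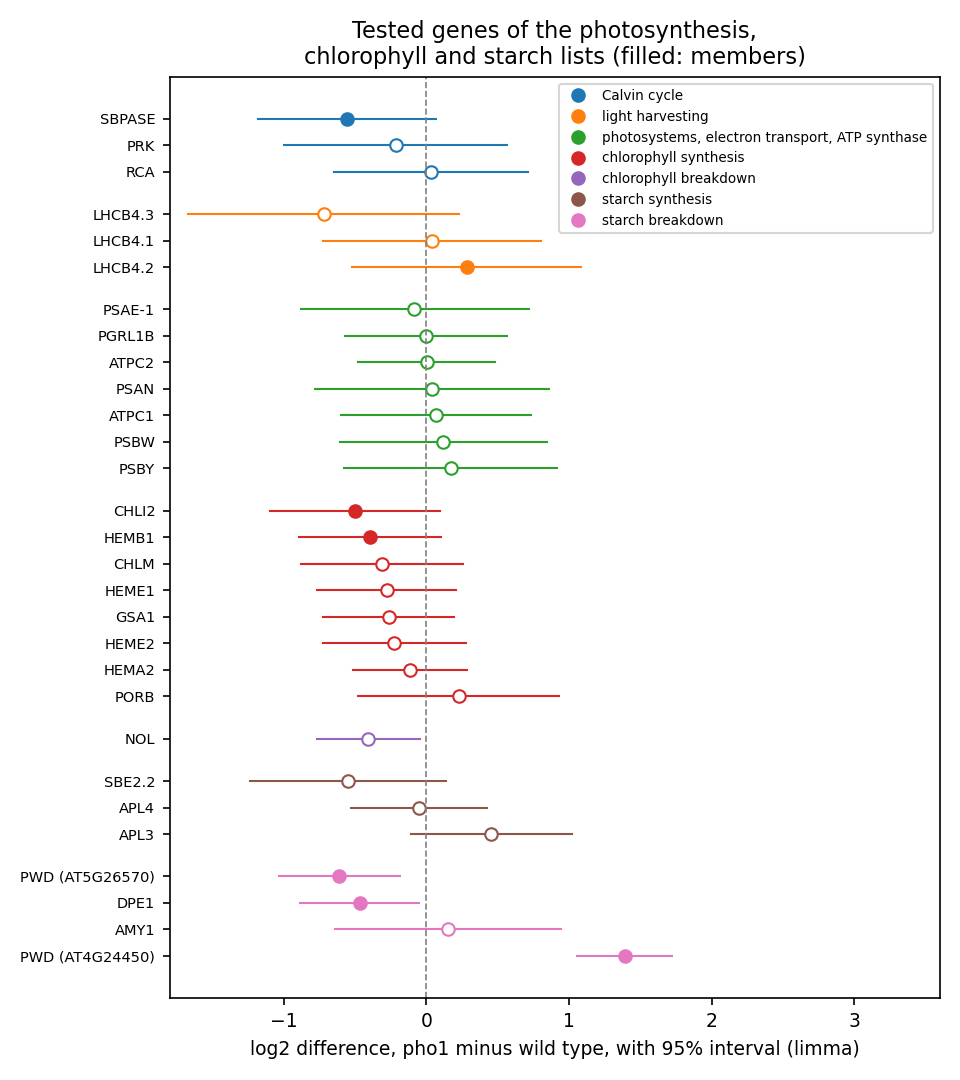
Log2 difference, pho1 minus wild type, with its 95% interval from limma for each tested gene of the photosynthesis, chlorophyll and starch lists, filled for members. Apart from PWD (AT4G24450) at 1.39, the means lie between -0.72 and 0.46, and 7 of the 8 chlorophyll synthesis genes lie below 0.

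Outside the members, 22 probe sets of the lists were tested, and none passed over all arrays or with the replicate block. At the median they differed by -0.03, and 12 of the 22 lay below 0, near the 53.0% of all probe sets tested. In replicates 2 and 3, LHCB4.3 and GSA1 were called lower and none higher; 2 of 22 is near the background of 9.26% called lower, and 9.72% of all probe sets were called higher. Both replicate 1 arrays lay above the other 4 in 15 of the 22.

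The members fell into different profiles over the 6 arrays. Likeness was measured as the root mean square difference of log2 values after each profile was centred, which is a description over 6 arrays that share their scaling and the replicate 1 gap. SBPASE and CHLI2 were the most alike of the 21 pairs of members at 0.05, followed by HEMB1 and DPE1 at 0.11. PWD (AT4G24450) was at 0.686 or more from each of the others, and LHCB4.2 at 0.472 or more. HEMB1, PWD (AT5G26570) and DPE1 lay 0.11 to 0.20 apart, but they did not form a group of their own. SBPASE lay 0.169 from HEMB1 and 0.183 from DPE1, and CHLI2 lay 0.158 and 0.190 from them. From PWD (AT5G26570), SBPASE and CHLI2 lay 0.279 and 0.298 away.

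**Figure D4:**
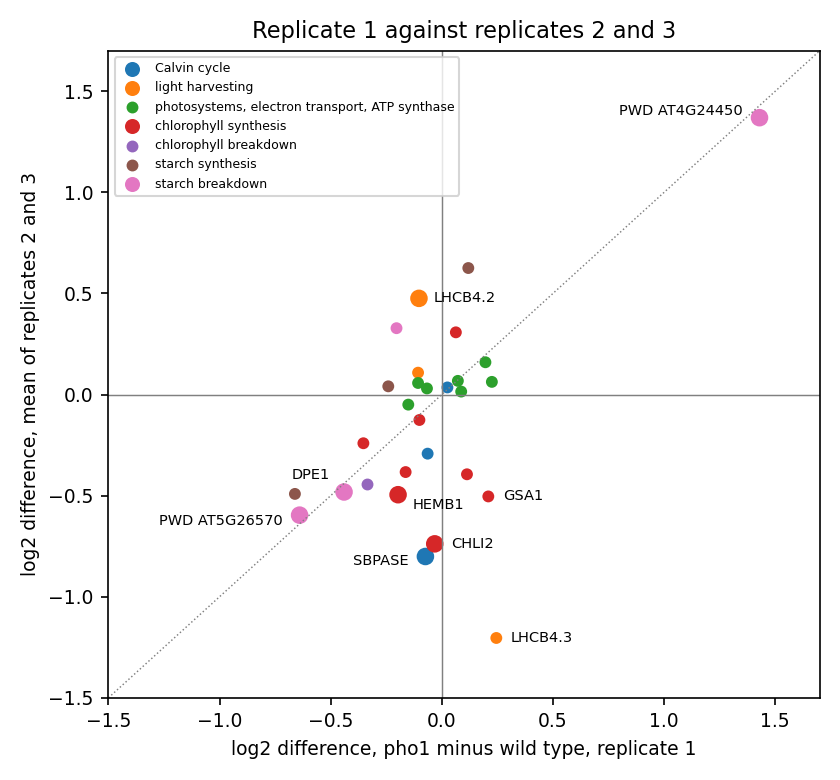
Log2 difference, pho1 minus wild type, of each tested list gene in replicate 1 (horizontal) against the mean of replicates 2 and 3 (vertical), coloured by list, with larger points for members and a dotted line of equality. Both PWD loci and DPE1 lie near the line, while SBPASE, CHLI2, GSA1 and LHCB4.3 lie below it.

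Among the 8839 other tested probe sets with 1 gene, members left aside, those most like each member were as follows. They were chosen by their values on these same arrays, so their differences follow from that choice and are no separate evidence. AT1G64680 and AT5G48790 were nearest to SBPASE, at root mean square differences of 0.0341 and 0.0373, and fell by 0.77 each in replicates 2 and 3 (limma adjusted p = 0.0173 and 0.0183). AT5G55210 and LIL3:1, a light-harvesting-like protein, were nearest to CHLI2 outside the members, at 0.0530 and 0.0537, while SBPASE was nearer still. AT4G33490 and AT2G03750 were nearest to HEMB1. AT5G27490 and AT5G57960 were nearest to PWD (AT5G26570), and AT1G64150 and GR, a glutathione reductase, were nearest to DPE1. For PWD (AT4G24450) they were AT4G26620, which rose by 1.38 from 107 ± 6.33 to 295 ± 20.9 (limma adjusted p = 0.00267), and AT3G21620, which rose by 1.404 from 13.97 ± 0.81 to 53.5 ± 5.16 (0.00347). The wild-type mean of AT3G21620 lay under the filter signal of 17.4, so it entered the test through its pho1 values. LHCB4.2 had no profile closer than 0.0857, that of AT1G63350, followed by AT1G34440.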

How the data were processed

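Per the submitters' processing notes, the authors used MAS5 (no version is named in the labels) to turn each of 6 arrays into linear intensity values, 1 per probe set. As deposited, the mean of each array without its lowest and highest 2% was about 100.01. Arrays were set to the average of these means, an offset of 10.0 (10% of that average) was added, and log2 was taken. Without the 64 controls, 22746 probe sets remained, and the dimmest 30% by mean log2 value (a signal under 17.4) were not tested. The remaining 15922 were fitted in limma 3.58.1 (R 4.3.3) with lmFit and trended eBayes, without a block. P-values are two-sided, adjusted over all of them after Benjamini-Hochberg, with a threshold of 0.05. The procedure was run on simulated arrays drawn independently, without the replicate 1 gap, so that run does not cover the gap. Plots used matplotlib 3.10.9. Detection calls were not used. Precision is limited by the number of arrays.

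Names came from the platform annotation (13513 probe sets with 1 gene, 13436 matched to a locus of the RefSeq TAIR10.1 gene table). The 8 lists held 245 entries, matched by symbol; the entry PGM met AT1G78050, too dim to be tested. The members and lists were chosen with earlier results of these data known, and the test of replicate 1 against replicates 2 and 3 after the data were seen. Named genes are the members, per list the called genes or the 2 with the smallest p, and the 2 nearest profiles of each member. PORB and the marker genes are named beyond that rule, chosen with their values known.

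The deviations of same-numbered arrays from their group means correlated at 0.42, 0.22 and 0.39 across probe sets. The gap of both replicate 1 arrays enters these correlations, and arrays of unlike number were not compared, so they cannot show a pairing. Same-numbered arrays were treated as pairs by replicate number, although the labels do not state a pairing. No arrays held identical values, and arrays of a group correlated at 0.92 to 0.98.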

Additional observations from a re-analysis of the deposited data

How the results depend on the processing

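The 18 alternatives were other scalings, offsets, filters and variance models, array weights, the replicate block, the spike-in sets as a block, replicates 2 and 3 alone, and leaving out each array. No member changed direction in any. With equal groups, the filters, the variance model and both blocks cannot move the log2 difference of a probe set, so they do not test its direction. The values as deposited were already scaled alike and gave the same differences. PWD (AT4G24450) kept its call throughout, at 0.89 (offset of 50% of the trimmed mean) to 1.498 (offset of 5%). HEMB1 and LHCB4.2 passed in none. With array weights SBPASE (-0.69), CHLI2 (-0.59), PWD (AT5G26570, -0.49) and DPE1 (-0.42) passed, in a fit that called 3789 probe sets. In replicates 2 and 3 SBPASE (-0.80) and CHLI2 (-0.74) passed, among 3021. PWD (AT5G26570, -0.61) passed with the replicate block, among 1057. The block changed no other call of a member, although it lowered the SE of SBPASE from 0.27 to 0.18 and that of LHCB4.2 from 0.35 to 0.17. With the block the limma adjusted p was 0.129 for SBPASE, 0.385 for LHCB4.2, 0.179 for CHLI2 and 0.212 for HEMB1. Over all probe sets 472 passed (417 higher, 55 lower), against 1319 with the spike-in sets as a block and 289 with no filter, where 22746 probe sets entered the adjustment. Leaving out 1 array gave 161 (pho1 replicate 2) to 1040 (pho1 replicate 1), with 162 without pho1 replicate 3, 182 without wild type replicate 2 and 303 without wild type replicate 3. The cause of these shifts was not tested. The medians of the lists moved by less than the SD between pairs in 112 of 126 recomputations. This count does not measure stability, because the blocks and the variance model cannot move a median and the lists are short. For starch breakdown, the move from -0.159 to -0.468 with a filter at the 50th percentile lay within that SD.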
